A study of Mus musculus with 6 samples.

Results

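Natural killer (NK) cells were examined in the lungs of newborn mice that grew up in room air or in high oxygen. The NK cells were the cells of the one cluster that the study's annotation names as NK cells, and they numbered 440 of 61839 cells in all (0.712%) and of 6264 lymphoid cells. C57BL/6 pups were kept from the day of birth until harvest either in room air with 21% O2 (normoxia) or in 85% O2 at normal pressure (hyperoxia), and lungs were taken at postnatal day (P) 3, 7 or 14. Each of the 6 groups held 6 mice, so 36 mice were profiled, and no group carried an engineered allele. Both sexes were represented. The study names their unequal distribution at P3 and P7 as a limit and gives it as equal at P14. Sex did not enter any test here. Nursing dams were exchanged between the oxygen levels every 48 h, lungs were perfused through the right ventricle and digested with collagenase, protease and DNase, and red cells were lysed. Cells were therefore counted after perfusion and dissociation, and the values below describe NK cells that stayed in the tissue and survived this preparation.

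NK cells are innate lymphocytes that kill infected, stressed or transformed cells without rearranged antigen receptors. They weigh signals from activating receptors such as NKp46 (Ncr1) and NK1.1 (Klrb1c) against inhibitory receptors that read MHC class I, release perforin and granzymes from granules, and secrete interferon-γ and chemokines. Interleukin 15, received through the β chain that it shares with interleukin 2 (Il2rb), keeps them alive, and in mice NK cells are immature at birth and acquire adhesion molecules, homing receptors and granule proteins over the first weeks of life.

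Transcripts had been counted as unique molecular identifiers (UMIs), 1 for each captured RNA molecule, at the 3′ end of genes. The median NK cell held 3942.5 UMIs (812 to 24944) from 1625.5 genes, and 4.6% of its UMIs were mitochondrial. The mice had been labelled with lipid-bound sample barcodes (MULTI-seq) and pooled, and the pools were read as 6 libraries. P14 mice were in pools of their own, so age and pool cannot be told apart in comparisons with P14, whereas each pool of an age held 3 normoxic and 3 hyperoxic mice. The barcode that assigned a cell to its mouse was the most frequent barcode in 76.5% of the NK cells of pool P14_1, in 82.9% and 90.2% of those of 2 other libraries and in 96.6% to 100% of the rest, against 95.8% of all cells of pool P14_1. Of 394 cell barcodes found in more than 1 library, none was an NK cell in both, and 7 NK cells carried a barcode that occurred in another library. For genes, the UMIs of the NK cells of a mouse were summed and given as CPM, the count of a gene per 1000000 UMIs of these cells, and mice with at least 5 NK cells were used. This left 33 mice, 432 NK cells and 10475 to 226527 UMIs a mouse, with 5 normoxic and 4 hyperoxic mice at P3 and 6 mice in every other group. Within a summed value, fewer NK cells that express a gene cannot be told apart from less of its RNA in each cell. Beyond the values per cell given below, nothing here separates them.

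The cluster carried the markers of NK cells. Ncr1 had a UMI in 60.9% of NK cells, Klrb1c in 63.0%, Gzma (granzyme A) in 74.3% and Eomes, the T-box factor of conventional NK cells, in 26.8%. Each of the 4 genes was higher in this cluster than in the other 33 clusters, with a mean of 277 ± 111 CPM for Ncr1, 265 ± 101 for Klrb1c, 5504 ± 2882 for Gzma and 99.8 ± 66.3 for Eomes (SD, n = 33 mice). In the cluster called CD8 T cell 1, the closest cytotoxic lymphocytes, the same genes had a UMI in 1.81%, 7.79%, 13.5% and 8.76% of cells at a similar depth (median of 3646 UMIs). These genes had also formed the cluster, so the values describe it and test nothing. Single cells differed, with 56 cells showing all 4 markers, 147 showing 3, 131 showing 2, 63 showing 1 and 43 showing none.

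Markers of other lymphocytes were uneven in the NK cells. Among the CD3 chains of the T cell receptor complex, Cd3e had a UMI in 2.05% of NK cells, Cd3d in 20.7% and Cd3g in 51.6%. The Cd3g share was close to the 54.1% of ILC2, innate cells without a T cell receptor. That comparison covers Cd3g alone, and the source of the CD3 UMIs was not tested. Cd8b1 was found in 0 of 440 NK cells, which allows up to 0.682% of cells with a UMI by counting error alone and sets no limit on cells that express the gene, and Trac, the constant α chain, in 8.64%. The β chain constants were frequent, at 73.4% for Trbc1 and 63.0% for Trbc2. Of genes of innate lymphoid cells, Rora had a UMI in 50.9%, Gata3 in 28.2%, Il7r in 20.5% and Cxcr6 in 18.4% of NK cells. Il1rl1, the ILC2 receptor of interleukin 33, was in 0.227%. Whether the cluster also held type 1 innate lymphoid cells (ILC1) was not tested. Altogether 251 NK cells (57.0%) had a UMI of Cd3e, Cd3d or Cd3g, and values without them are given below. Sftpc, the surfactant gene of alveolar type 2 cells, had a UMI in 93.2% of NK cells, and in 88.9% to 93.8% of the cells of the other lymphoid clusters.

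**Figure D1:**
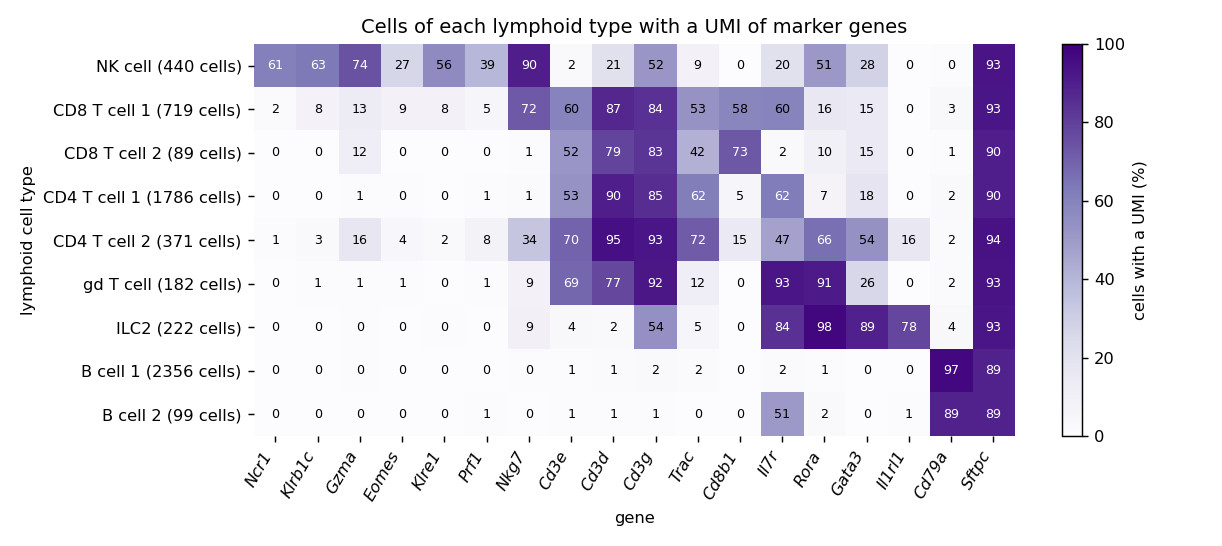
Percentage of cells with at least 1 UMI of each gene (columns) in each of the 9 lymphoid clusters (rows, with the number of cells). Ncr1, Klrb1c, Gzma and Eomes are highest in the top row of NK cells, Cd3e is at 2.05% there, and Sftpc is high in every row.

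The first question was whether hyperoxia altered the share of NK cells among the cells recovered from the lung. Cells of the mice had been pooled in equal parts, so these shares do not give numbers of NK cells per lung. At P3, NK cells made up a mean of 0.559% ± 0.441 of all cells of normoxic mice and 0.722% ± 0.521 of hyperoxic mice (SD, n = 6 each). At P7 the means were 0.760% ± 0.431 and 1.53% ± 1.31, the latter with 1 mouse of 125 cells in all at 4%, without which the hyperoxic mean was 1.04%. Neither difference passed the exact two-sided permutation test over mice (adjusted p = 0.786 and 0.432 over 34 cell types and 3 ages). The range within each group was wide at both ages, from 0.098% to 1.22% in normoxia at P3.

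At P14 the normoxic mice lay close together, with a lowest share of 0.297%, a median of 0.385% and a highest of 0.494%. The hyperoxic mice ran from 0.354% through a median of 1.32% to 2.03%, and 5 of the 6 lay above every normoxic mouse. The means were 0.392% ± 0.0723 and 1.19% ± 0.665, a difference of 0.800 percentage points (exact permutation p = 0.0152, adjusted p = 0.0773), which missed the threshold of 0.05 while 32.4% of the cell types passed it at this age. edgeR on numbers of cells gave a log2 fold change of 1.54 ± 0.50 (SE) and an adjusted p of 0.0341, and without the cells that had a CD3 UMI the difference was 0.529 points (adjusted p = 0.114 by the permutation test). The pools were unequal. In pool P14_1 the share was 0.400% in normoxia and 1.74% in hyperoxia (3 mice each), with no overlap, and in the other pool 0.383% and 0.641%, with overlap. Without pool P14_1 the difference was 0.258 points, and 3 against 3 mice allow no p below 0.1. With only the cells whose assigned barcode was their most frequent, it was 0.614 points (adjusted p = 0.0662 by the permutation test).

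Among lymphoid cells the P14 groups did not overlap. NK cells were 1.89% to 2.64% of the lymphoid cells of normoxic mice, with a median of 2.35%, and 4.05% to 15.9% of those of hyperoxic mice, with a median of 10.7%. The means of 2.30% ± 0.294 and 10.4% ± 4.96 differed by 8.14 points (exact permutation p = 0.00216, the smallest that 6 against 6 mice allow, adjusted p = 0.0292), and 22.2% of the 9 lymphoid clusters passed at P14. With labels exchanged only within pools, the p was 0.005, the smallest that this design allows, and the adjusted p was 0.0675. Both pools went the same way, from 2.33% to 14.5% in pool P14_1 and from 2.27% to 6.39% in the other, where the ranges also did not overlap. Without pool P14_1 the difference was 4.13 points (exact permutation p = 0.1, the smallest that 3 against 3 mice allow, adjusted p = 0.567). With only the cells whose assigned barcode was their most frequent, it was 8.82 points (adjusted p = 0.0292 by the permutation test). The denominator moved too, since 238 to 609 lymphoid cells were profiled per P14 mouse in normoxia and 148 to 175 in hyperoxia. Among all immune cells the means were 1.26% ± 0.176 and 3.48% ± 1.71 (adjusted p = 0.0788), while 23.5% of 17 immune clusters passed at P14 and 5.88% at P3. At P3 and P7 the shares of lymphoid cells were 11.8% against 16.7% and 8.14% against 9.85% (adjusted p = 0.604 and 0.904). The effect of hyperoxia on the share of all cells was not shown to differ between ages (permutation test of the difference of effects, adjusted p = 0.448 to 0.991).

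**Figure D2:**
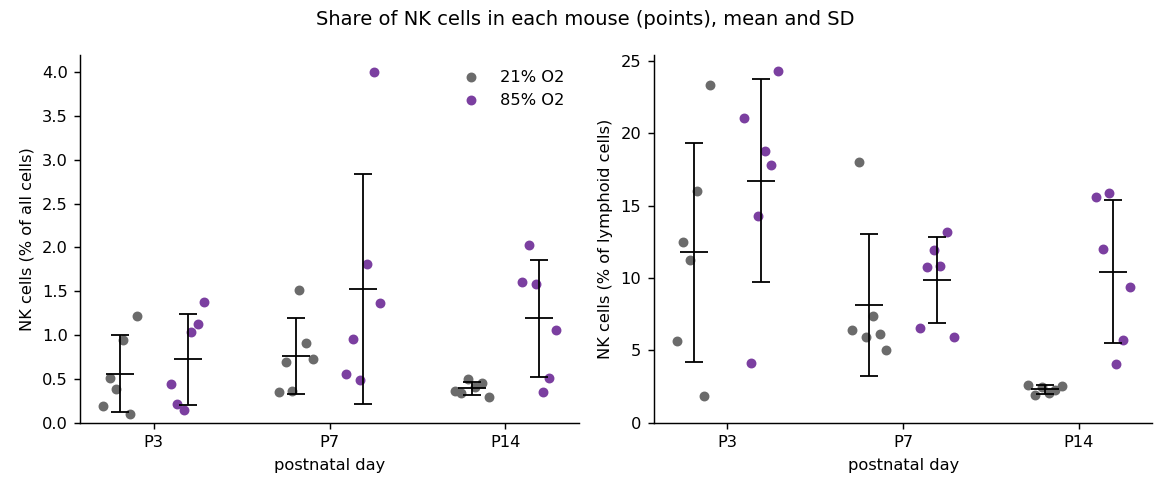
NK cells as a percentage of all cells (left) and of lymphoid cells (right) in each mouse (points) by postnatal day, gray for 21% O2 and purple for 85% O2, with the mean and SD of 6 mice as black bars. At P14 the normoxic mice lie between 0.297% and 0.494% of all cells and between 1.89% and 2.64% of lymphoid cells, below every hyperoxic mouse on the right.

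Between ages in normoxia, the share of NK cells among all cells was 0.368 points lower at P14 than at P7 (p = 0.0433 by the exact permutation test, adjusted p = 0.134, while 8.82% of cell types passed). Without cells with a CD3 UMI the difference was -0.0744 points (0.284% at P7 and 0.209% at P14, adjusted p = 0.709). Of lymphoid cells the share went from 8.14% ± 4.89 to 2.30% ± 0.294 (adjusted p = 0.0584). Of all immune cells it went from 2.36% ± 0.727 to 1.26% ± 0.176 (adjusted p = 0.0110), with every P14 mouse (1.08% to 1.53%) below every P7 mouse (1.61% to 3.61%). In hyperoxia the same immune share was 3.84% ± 2.05 at P7 and 3.48% ± 1.71 at P14 (adjusted p = 0.833). No comparison of ages passed for the share of all cells, among them P14 against P3 in normoxia at -0.167 points (adjusted p = 0.587), where 38.2% of cell types passed.

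The NK cells of hyperoxic mice also held more RNA molecules at P14. The median NK cell of a normoxic mouse held 1878 to 2701 UMIs (median of mice 2461.75) and that of a hyperoxic mouse 3432 to 5324.5 (median 3963), so the 6 mice of each group did not overlap (exact permutation p = 0.00216, adjusted p = 0.00974). Genes per cell went the same way, at 1247.75 against 1602.75 (adjusted p = 0.00974), and the mitochondrial percentage did not pass (adjusted p = 0.568). At P3 and P7 none of these measures passed (adjusted p = 0.409 to 0.635). With at least 10 NK cells a mouse, 2 normoxic and 5 hyperoxic mice were left at P14 and the difference was 1763.8 against 1833.75 UMIs with all mice (exact permutation p = 0.0952, adjusted p = 0.286). These 7 mice allow no p below 0.0476 before adjustment, so that test could not pass.

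Txnip was the one gene that hyperoxia changed in NK cells over all ages, and it fell. Txnip encodes the thioredoxin-interacting protein, which binds the antioxidant thioredoxin and limits glucose uptake, and lies on chromosome 3 (chr3:96557957-96561883, plus strand, mm10). At P3 its level was 96.0, 191 and 223 CPM in the lowest, median and highest normoxic mouse, and 52.7, 62.7 and 69.3 CPM in hyperoxic mice. At P7 the same values were 37.7, 159 and 250.1 against 0, 44.5 and 95.6 CPM. At P14 they were 178, 260.4 and 511 against 17.8, 70.3 and 167 CPM. The oxygen groups did not overlap at P3 or P14 and overlapped at P7. Over all ages, with age in the model, the log2 fold change was -1.66 ± 0.25 (SE), a 3.15-fold fall, with an adjusted p of 1.3e-04 by edgeR's quasi-likelihood test with Benjamini-Hochberg adjustment. This was 1 of 1151 genes tested (0.0869%), and 64 genes had an unadjusted p below 0.05, where DESeq2 also called Txnip alone.

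The Txnip difference kept its direction in each subset given here. Without any 1 mouse the log2 fold change stayed between -1.74 and -1.56 with a highest adjusted p of 7.6e-04. With a term for each pool it was -1.61, and without pool P14_1 it was -1.63 (adjusted p = 4.8e-04 and 0.00467, edgeR). With each cell thinned to 1000 UMIs, Txnip was seen in 17.0% of normoxic and 4.62% of hyperoxic NK cells at P3, 10.8% and 4.12% at P7, and 34% and 10.9% at P14, against 32.7% and 21.2%, 40.5% and 22.7%, and 58.5% and 25.7% before thinning, and 3 cells below 1000 UMIs were left out. Age by age the log2 fold changes were -1.36, -1.58 and -1.88, none of which passed alone (adjusted p = 0.998, 0.352 and 0.0648). For the all-age comparison, thinned sums, sums without CD3 cells, sums of mice with at least 1 NK cell and a model without age dropped Txnip at the filter on low counts, so it was not tested there.

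**Figure D3:**
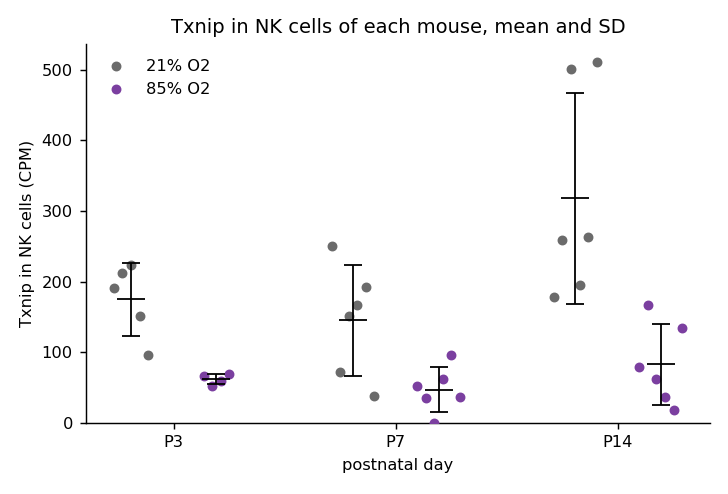
Txnip in NK cells of each mouse (points, CPM) by postnatal day, gray for 21% O2 and purple for 85% O2, with the mean and SD of 4 to 6 mice as black bars. The hyperoxic mice reach at most 167 CPM, and at P14 every normoxic mouse lies above them.

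The genes that define NK cells did not pass the test for hyperoxia. Of 12 NK cell markers, 11 were tested over all ages, 2 of them with a log2 fold change above 0 and 9 below, with a median of -0.18 against -0.0033 for all genes tested. Ncr1 had a log2 fold change of 0.04 ± 0.19, Klrb1c of -0.30 ± 0.19 and Gzma of -0.29 ± 0.26 (edgeR adjusted p of 0.996, 0.899 and 0.996). Gzma had a median of 6996 CPM in normoxia and 9709 in hyperoxia at P3, 7455 and 3536 at P7, and 3739 and 3668 at P14, where single hyperoxic mice went as low as 108 CPM. Eomes did not pass the filter on low counts.

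Effector and receptor genes were described by role. Of 14 cytotoxic effectors, 8 were tested and none was called, with a median log2 fold change of -0.11. Gzmb (granzyme B) had a log2 fold change of 0.05 ± 0.33 and Prf1 (perforin, which opens the target membrane) of -0.25 ± 0.30. Activating receptors and adaptors gave 8 tested members, 2 above 0 and 6 below (median -0.11), with the adaptor Tyrobp (DAP12) at -0.04 ± 0.17. Inhibitory receptors gave 5 tested members with a median of -0.33, among them Klrd1 (CD94) at -0.33 ± 0.21 and Klre1 at -0.50 ± 0.26. No gene of these lists was called, and the smallest adjusted p of those with a value here was 0.889, for Klre1 (edgeR). It was not the smallest of the lists. Klra5 had the smallest p of the inhibitory receptors and Nkg7 that of the cytotoxic effectors, and their values are not given here.

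Cytokine genes did not pass either, and their levels ranged widely between mice. Of the 14 cytokine and chemokine genes 7 were tested, 4 above 0 and 3 below (median 0.20). Xcl1, the chemokine for cross-presenting dendritic cells, had a log2 fold change of 0.66 ± 0.40, and its level at P7 ran from 22.7 to 4866 CPM in normoxia. Ccl5, which attracts T cells and monocytes, went from 5251, 7113 and 9579 CPM in normoxia (lowest, median, highest) to 1588, 2874 and 4521 CPM in hyperoxia at P14. The P14 groups of Ccl5 did not overlap, yet the log2 fold change of -1.30 ± 0.42 did not pass after adjustment (edgeR adjusted p = 0.29). Cytokine receptors gave 6 tested members with a median of -0.048, with Il2rb at -0.09 ± 0.14.

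Metabolic and stress genes were not called. All 11 tested genes of the mitochondrial genome for oxidative phosphorylation lay above 0 over all ages, with a median log2 fold change of 0.20, 5 with an unadjusted p below 0.05 and none called; mt-Cytb had 0.27 ± 0.09 (edgeR adjusted p = 0.72). The nuclear genes of oxidative phosphorylation, of which 15 were tested, had a median of 0.0088. Of NRF2 targets and antioxidant genes 4 were tested, all above 0 (median 0.071), with Prdx1, a peroxiredoxin, at 0.33 ± 0.15 and Txn1, the thioredoxin that the Txnip protein binds, at 0.05 ± 0.15. Of the p53 targets, Bax, which promotes apoptosis, had 0.47 ± 0.20 and was not called (adjusted p = 0.86). Heat shock genes gave 4 above and 5 below 0 of 9 tested.

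Within single ages no gene passed in the edgeR test, with 43, 47 and 168 of 1450 genes at an unadjusted p below 0.05 at P3, P7 and P14 (0% called at each age), where DESeq2 called 0, 0 and 1. The effect of hyperoxia was tested for a difference between ages and gave 0 genes for each pair of ages (42, 107 and 129 unadjusted). On simulated counts the same test recovered 95.8% of 4-fold and 51.1% of 2-fold changes for P14 (1367 genes), and 100% of both over all ages (1176 genes). It falsely called 2 and 5 unchanged genes. Many genes changed at once in the simulation (95 and 92 of those fitted for P14), and genes of the same level shared the same spread. These rates therefore set no limit on the changes missed in the real data.

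Cell cycle genes stood out at P14 as values that did not pass. All 13 tested of 20 genes were higher in hyperoxia, with a median log2 fold change of 1.51 against 0.043 for all genes tested, 7 with an unadjusted p below 0.05 and none called. A gene could pass the filter on low counts through mice of any group, and several counts in normoxic P14 mice were small. Ube2c had 1, Rrm2 2 and Birc5 3 UMIs there, against 61, 32 and 71 in hyperoxia. The median was 2.42 without pool P14_1 (15 members), 1.01 after thinning (4 members) and 1.10 without cells with a CD3 UMI (8 members), again with none called. With no filter on low counts all 20 members lay above 0, with a median of 1.94 against 0.29 for all genes, and 7 were called, where 47 of 14226 genes were called higher (0.33%, or 0.903% of the 5205 with a UMI in at least 10% of cells). Mki67, which marks cycling cells, had 0, 43.4 and 71.6 CPM in the lowest, median and highest normoxic mouse and 45.7, 447 and 872 CPM in hyperoxia. Hmgb2, a chromatin protein of dividing cells, had 383, 550.2 and 861 CPM against 670.0, 1688 and 2228 CPM. The groups overlapped for both genes, and the log2 fold changes were 3.17 ± 0.85 and 1.31 ± 0.42 (edgeR adjusted p = 0.19 and 0.29). The summed level of the 20 genes was 3414 ± 733 CPM in normoxia and 6945 ± 3148 CPM in hyperoxia (SD, n = 6 each). UMIs per NK cell were higher in the same mice, as given above, and with cells thinned to 1000 UMIs a UMI of Mki67 was found in 0% of 53 normoxic and 13.9% of 101 hyperoxic NK cells. The part of depth in the summed levels was not tested.

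Markers of other cells differed between mice at P14. Hbb-bs, the β-globin of red cells, was at 32452 CPM in 1 normoxic P14 mouse and at no more than 47.7 CPM in the other 5, and at 0 to 23.4 CPM in hyperoxia. The 12 genes of epithelial, stromal, endothelial and red cells summed to 1605 to 47830 CPM in normoxic and to 1511 to 1919 CPM in hyperoxic P14 mice. The 12 T cell genes summed to 907 to 4733 CPM and to 1036 to 2294 CPM. The 8 B cell genes summed to 128 to 350.1 CPM in normoxia and 143 to 1584 CPM in hyperoxia. For the 12 genes of ILC1 and ILC2 the sums were 586 to 1635 CPM and 382 to 2926 CPM. For the 12 myeloid genes they were 129 to 286 CPM and 178 to 287 CPM. The ranges overlapped for each of these lists. Their part in the P14 values was not tested.

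Development in room air was the next question, and the calls lay in the comparisons with P14. Of 1450 genes, 40 changed from P3 to P14 in normoxia (2.76%), 25 higher (1.72%) and 15 lower (1.03%), and 42 changed from P7 to P14 (2.9%), 20 higher (1.38%) and 22 lower (1.52%), by edgeR, or 22 higher and 13 lower without TMM scaling, while 297 and 333 had an unadjusted p below 0.05. From P3 to P7 no gene passed (0%, 68 unadjusted, and 0 by DESeq2). The largest called changes also held genes that are not taken up below. Zbtb20 rose from P3 to P14 (log2 fold change 3.04 ± 0.84, edgeR adjusted p = 0.036). From P7 to P14, Tle3 rose by 2.02, Nrgn by 2.01, Tnrc6b by 1.57 and Pbxip1 by 1.35. In the same comparison Hist1h2ae (-5.12, with 1 UMI at P14) and Cks2 (-2.26) fell. All P14 mice came from other pools than the younger mice, so these changes cannot be told apart from a difference between pools. The distribution of sexes also differed between P14 and the younger ages, and its part was not tested.

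Receptors for survival cytokines and for homing were among the genes that rose. Il2rb, the shared β chain of the interleukin 2 and 15 receptors, stood at 454, 491 and 720.2 CPM in the lowest, median and highest normoxic mouse at P3, at 565, 782 and 1234 CPM at P7, and at 1033, 1583 and 2219 CPM at P14. The P3 and P14 mice did not overlap. The log2 fold change from P3 to P14 was 1.54 ± 0.24 (SE; edgeR adjusted p = 2.8e-04), and from P7 to P14 it was 0.99 ± 0.21 (adjusted p = 0.019). The rise from P3 was also called without pool P14_1 (1.37, adjusted p = 0.018), without cells with a CD3 UMI (2.23, 0.030) and after thinning (1.51, 0.014). Il18rap, a chain of the receptor for interleukin 18, which primes interferon release, and Jak1, the kinase downstream of cytokine receptors, rose by 1.71 ± 0.36 and 1.64 ± 0.30 from P3 to P14 (adjusted p = 0.0056 and 0.0016); both were named after their values were seen. Of 16 cytokine receptors 6 were tested, and 2 of them rose from P3 to P14, with a median log2 fold change of 0.68 against -0.029 for all genes. Of all genes tested, 1.72% were called higher in this comparison.

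Of 17 chemokine and homing receptors, 8 were tested, with a median log2 fold change of 1.26 from P3 to P14 against -0.029 for all genes. Ccr2 and Itgal were among those that rose, where 1.72% of all genes were called higher. Ccr2, the receptor that guides cells toward inflamed tissue, went from 0, 134 and 185 CPM at P3 through 202, 287 and 406 CPM at P7 to 350.1, 562 and 1368 CPM at P14. P3 did not overlap with either later age. The log2 fold change was 2.22 ± 0.36 from P3 to P14 (edgeR adjusted p = 2.8e-04) and 1.08 ± 0.29 from P7 to P14 (adjusted p = 0.035). Itgal, the α chain of the integrin LFA-1, rose by 1.70 ± 0.44 (adjusted p = 0.030).

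Among cytotoxic effectors, Prf1 was the one of 9 tested that changed from P3 to P14, where 2.76% of all genes changed. Prf1 went from 9.6, 60.6 and 191 CPM at P3 to 195, 332 and 620.3 CPM at P14, so the groups just did not overlap, and the log2 fold change was 3.23 ± 0.68 (edgeR adjusted p = 0.00564). The highest P3 mouse had 10475 UMIs over all genes and the lowest P14 mouse 15346, so their Prf1 values rest on few UMIs. Without pool P14_1 it was 2.91 (adjusted p = 0.097). Gzma and Gzmb had lower values at P14 that did not pass, with -0.87 ± 0.44 and -1.82 ± 0.64 (adjusted p = 0.24 and 0.093). Gzmc (granzyme C), named after its values were seen, had an adjusted p of 0.00313 from P7 to P14 but UMIs in only 4.05% and 9.43% of NK cells, under the 10% required, and 1 P14 mouse reached 9380 CPM.

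Ifng, the gene of interferon-γ, fell. Its level was 491, 672 and 1454 CPM at P3, 235, 639 and 2683 CPM at P7, and 0, 161 and 219 CPM at P14 in normoxia, so that every P14 mouse lay below every younger mouse. The log2 fold changes were -2.32 ± 0.63 from P3 and -2.64 ± 0.59 from P7 (edgeR adjusted p = 0.035 and 0.019). It was the one cytokine gene of 8 tested that was called, where 1.03% and 1.52% of all genes were called lower from P3 and from P7. Ccl5 and Xcl1 had -0.18 ± 0.44 and 0.88 ± 0.77 from P3 to P14 and did not pass.

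Of the transcription factors of NK cells, Ets1 and Irf8 rose. Ets1, which is needed for NK cell development, went from 95.5, 252 and 423 CPM at P3 to 565, 695 and 977 CPM at P14 without overlap (log2 fold change 1.30 ± 0.26, edgeR adjusted p = 0.0051), and was also higher at P14 than at P7 (0.91 ± 0.23, adjusted p = 0.027). Irf8 went from 89.2, 163 and 437 CPM to 521, 678 and 1291 CPM (1.80 ± 0.43, adjusted p = 0.019). Of 9 transcription factors tested from P3 to P14, 2 were called, both higher, with a median of 0.90 against -0.029 for all genes. Of all genes, 1.72% were called higher in this comparison. Bcl2, which guards against apoptosis, rose from P7 to P14 by 1.81 ± 0.46 (adjusted p = 0.028). Ctla2a, a protease inhibitor, and H2-Q7, a class Ib MHC molecule, rose from P3 to P14 by 2.35 ± 0.49 and 1.18 ± 0.32 (adjusted p = 0.0056 and 0.035). Ighm, the immunoglobulin heavy chain of B cells, was called higher as well (2.40 ± 0.67), with 11 UMIs in the P3 and 37 UMIs in the P14 mice. The 8 B cell genes together went from 30.3 to 154 CPM at P3 (mean 78.2 ± 48.8) to 128 to 350.1 CPM at P14 (mean 301 ± 85.7), and the part of B cell RNA in the other changes with age was not tested.

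Cell cycle genes had lower values at P14 than at either younger age, and 4 of them passed from P3. All 13 tested members lay below 0 in both comparisons, with a median log2 fold change of -2.26 from P3 and -2.13 from P7. Hmgb2, Mki67, Ube2c and Cenpa fell from P3 to P14, and Hmgb2 alone of the list was called from P7 to P14. Of all genes tested, 1.03% and 1.52% were called lower in these comparisons. The normoxic P14 mice were the lower group in both, as in the comparison with hyperoxia above, so these are not independent readings. Leaving out 1 mouse gave 1 (without normoxic P14 mouse 3) to 6 (without normoxic P7 mouse 5) called members from P3, where 0.398% and 1.98% of all genes were called lower. From P7 it gave 0 (without normoxic P7 mouse 1 or 3) to 6 (without normoxic P7 mouse 4), the latter where 5.47% of all genes were called lower. Without pool P14_1 or without cells with a CD3 UMI no member was called from P3 or from P7. From P3, 7 of 15 were called with the most frequent barcode (1.75% of all genes lower) and 13 of 20 with no filter on low counts (0.633% of all genes lower, or 1.58% of those with a UMI in at least 10% of cells). From P7, DESeq2 called 6 of 13 (1.93% of all genes lower), the most frequent barcode 6 of 15 (3.83%) and no filter 16 of 20 (1.17%, or 2.86% of those with a UMI in at least 10% of cells). Hmgb2 went from 2185, 2410.4 and 2720.3 CPM at P3 and 813, 2562 and 4002 CPM at P7 to 383, 550.2 and 861 CPM at P14, with log2 fold changes of -1.96 ± 0.44 and -1.94 ± 0.42 (edgeR adjusted p = 0.0078 and 0.019). Mki67 went from 212, 547 and 859 CPM at P3 to 0, 43.4 and 71.6 CPM at P14, without overlap (-3.46 ± 0.87, adjusted p = 0.025). Ube2c, a ubiquitin enzyme of mitosis, counted 89 UMIs at P3 and 1 at P14, a ratio of 59.2 (95% counting interval 10.4 to 2364). Cdca8, a partner of the Aurora B kinase, counted 52 UMIs at P3 and 0 at P14, at least 11.5-fold lower against a floor of 3 UMIs over the group. The values from P7 also depended on which cells were summed, with 1 normoxic P7 mouse left in both fits that follow. Without the cells that had a CD3 UMI, 5 of 8 tested members lay above 0 (median 0.65), and with at least 10 NK cells a mouse 12 of 19 lay below (median -0.25).

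Genes of glycolysis and hypoxia and heat shock genes had lower values at P14, most of which did not pass. All 10 tested members of the first list lay below 0 in both comparisons, where Gpi1, the glucose phosphate isomerase, fell from P3 (-1.44 ± 0.41, edgeR adjusted p = 0.048) and Gapdh, named after its values were seen, fell from P7 (-1.46 ± 0.40, adjusted p = 0.039). All 9 tested members of the second lay below 0 in both, with medians of -0.79 and -0.71 and none called. The interferon-inducible membrane gene Ifitm3 counted 67 UMIs at P3 and 1 at P14, a ratio of 44.6 (95% counting interval 7.73 to 1786).

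**Figure D4:**
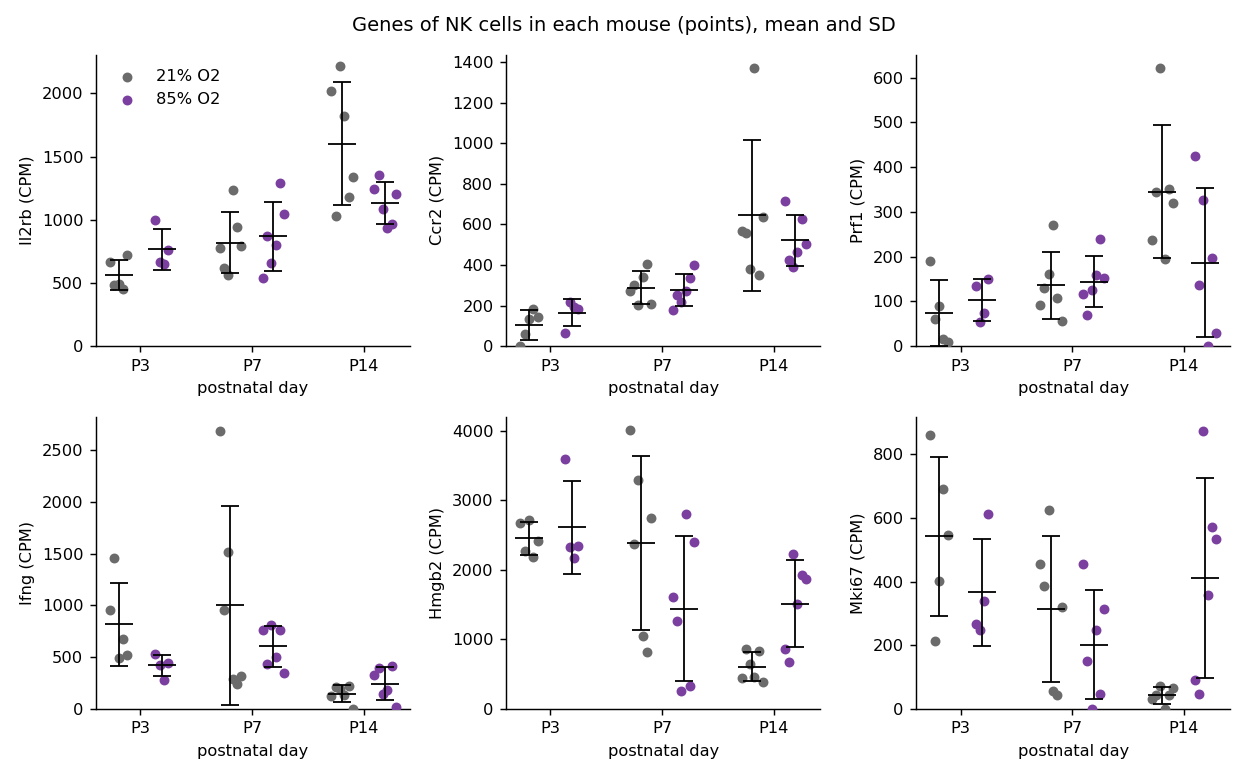
Level of 6 genes in NK cells of each mouse (points, CPM, an axis for each gene) by postnatal day, gray for 21% O2 and purple for 85% O2, with the mean and SD of 4 to 6 mice as black bars. Il2rb, Ccr2 and Prf1 are highest at P14 in room air, while Ifng, Hmgb2 and Mki67 are lowest there.

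Several calls rested on few mice. Of the 40 genes changed from P3 to P14, 12 were called in each of the 11 fits that left out 1 mouse of these groups, among them Ccr2, Ctla2a, Ets1, Hmgb2, Ifitm3, Il18rap, Il2rb, Jak1, Prf1, Ssh2 and Tubb4b. None of the 42 genes changed from P7 to P14 was called in all 12 fits that left out 1 mouse of those groups, and no gene was left when normoxic P7 mouse 1 or 3 was taken out. Without pool P14_1 the counts were 7 and 4. NK cells of normoxic P7 mice held a median of 5775.5 UMIs, more than at P14, and with cells thinned to 1000 UMIs the counts were 11 from P3 and 5 from P7. Over all comparisons, 11 calls passed again after thinning and 16 were tested and did not pass. The other calls dropped at the filter on low counts and were not tested there. Of 440 NK cells, the normoxic groups held 49, 74 and 53. Without cells with a CD3 UMI, 2 normoxic P3 mice, 1 P7 mouse and 4 P14 mice had 5 cells or more, and the lone P7 mouse was assumed to vary like the other groups. There Il2rb was the 1 gene called from P3 to P14 and none was called from P7 to P14. The log2 fold change from P3 to P14 was then 2.26 for Ccr2, 1.73 for Prf1, 1.25 for Ets1 and 2.91 for Irf8 (edgeR adjusted p = 0.290, 0.470, 0.470 and 0.264). It was -1.90 for Ifng, -1.88 for Mki67 and -1.83 for Hmgb2 (adjusted p = 0.396, 0.703 and 0.411), and 0.23 for Itgal (0.902). Of the other genes described, Il18rap had 2.17, Jak1 1.67, Ctla2a 2.33, H2-Q7 1.44 and Ighm 2.69 (adjusted p = 0.285, 0.264, 0.362, 0.411 and 0.411). Ssh2 had 2.92, Tubb4b -2.66 and Cenpa -2.40 (adjusted p = 0.290, 0.264 and 0.411), the adjusted p was 0.652 for Ifitm3 and 0.290 for Ube2c, and Gpi1 and Cdca8 did not pass the filter on low counts. From P7 to P14 it was 1.01 for Bcl2, 0.34 for Il2rb, 0.40 for Ccr2, 0.029 for Ets1, -0.81 for Ifng, -0.92 for Hmgb2 and -0.70 for Gapdh (adjusted p = 0.987 or more).

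In hyperoxia, from P3 to P14, edgeR called 9 genes (0.621%), 6 higher and 3 lower, and between neighbouring ages none (0%; 65 and 181 unadjusted, with 0 and 5 by DESeq2). Ccr2 went from 66.6, 188 and 217 CPM to 389, 485 and 716 CPM without overlap (log2 fold change 1.48 ± 0.32, adjusted p = 0.023). Ptpn6 (SHP-1), the phosphatase through which inhibitory NK receptors signal, rose by 2.14 ± 0.46, Nr4a3, a nuclear receptor induced by activation, by 2.08 ± 0.49, Dock10 by 1.68 ± 0.38, Chd4 by 1.13 ± 0.27 and Pabpc1 by 0.78 ± 0.18 (adjusted p = 0.023 to 0.025). The interferon-inducible Ifitm1 fell by 4.44 ± 0.97 and Ifitm3 by 2.6 ± 0.59 on the log2 scale (adjusted p = 0.023 for both), and Supt4a by 0.99 ± 0.24. Ifitm1 had 466, 806 and 1399 CPM at P3 and 0, 3.89 and 167 CPM at P14 in hyperoxia. All 9 calls were lost without hyperoxic P14 mouse 5 or hyperoxic P3 mouse 4 or 6. Without cells with a CD3 UMI, Ifitm1 alone of the 9 was called (-6.39, adjusted p = 0.00168), and Ccr2 had 1.77, Ptpn6 3.1, Nr4a3 1.65, Dock10 0.89, Chd4 0.88, Pabpc1 0.61, Ifitm3 -3.57 and Supt4a -1.38 (adjusted p = 0.274 to 0.714).

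The mice of the other oxygen level gave a second reading of the genes changed in room air. Of the 40 genes changed from P3 to P14 in normoxia, 39 moved in the same direction in hyperoxia. Of these, 15 had an unadjusted p below 0.05, and 2, Ccr2 and Ifitm3, were called there. The share of all genes tested that moved the same way at both oxygen levels is not given here. For the 40 genes the median size of the log2 fold change was 1.71 in normoxia, where they had been chosen. It was 0.63 in the same direction in hyperoxia. Mki67 was the exception, at -3.46 in normoxia and 0.17 ± 0.56 in hyperoxia. Il2rb had 0.64 ± 0.24, Prf1 1.22 ± 0.52 and Ifng -0.72 ± 0.55 in hyperoxia, none of which passed (adjusted p = 0.17, 0.24 and 0.57). The mice differed but the pools were shared, so a difference between pools would enter both readings. Whether the change from P3 to P14 depended on oxygen was the difference of effects tested above, in which no gene passed.

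**Figure D5:**
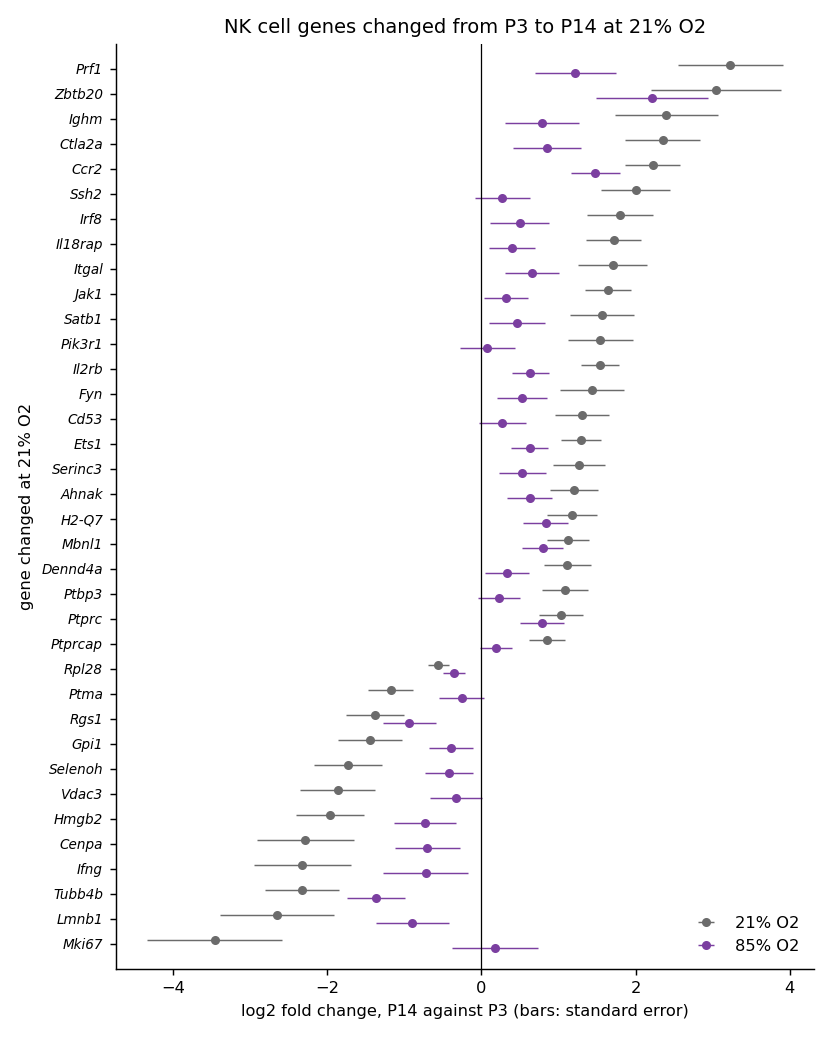
log2 fold change from P3 to P14 (horizontal, bars for the standard error) of 36 genes changed in room air (rows), gray for 21% O2 and purple for 85% O2; 4 changed genes with 3 or fewer UMIs in a group are left out. The purple points lie on the same side of 0 as the gray ones for all genes drawn but Mki67, and mostly nearer to 0.

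CD8+ T cells served as the nearest comparison for the effect of hyperoxia. In 29 mice with at least 5 cells of both types (16 normoxic, 13 hyperoxic), 1403 genes were tested for a different effect in the 2 types, with a term for each mouse, and none passed (0%; 141 unadjusted). Txnip had a log2 fold change of -1.72 in NK cells and -0.65 in CD8+ T cells of the same mice (edgeR adjusted p = 9.4e-04 and 0.092), and the difference of -1.16 ± 0.33 did not pass (adjusted p = 0.15). The fall of Txnip was therefore not shown to be particular to NK cells. Lgals1 (galectin 1) and Tcf7, the transcription factor of naive and immature lymphocytes, had the smallest p-values for a difference (-1.01 ± 0.22 and 0.99 ± 0.23, adjusted p = 0.0605 for both). In the CD8+ T cells themselves 11 of 1968 genes changed.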

How the data were processed

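The authors' cell annotation and table of UMI counts were used as deposited; the labels name Cell Ranger 3.0.2 and mm10, and per the study's methods cells with more than 1 sample barcode were removed as doublets and types came from integrated Seurat clusters. The table matched the annotation in all 61839 cells. The percentage of mitochondrial UMIs per cell is the authors' own deposited value, computed in Seurat, and 378 cells exceeded 20%. No further filter or doublet caller was applied. The deposited counts of sample barcodes served as a check. Mice, taken as replicates, come from the annotation.

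UMI counts were summed per mouse over NK cells and fitted in edgeR 4.0.16 (TMM, filterByExpr, quasi-likelihood; 6-group model, or age and oxygen); changed means a Benjamini-Hochberg p below 0.05 and a UMI in at least 10% of the NK cells of either group. DESeq2 1.42.0 was an alternative. Shares and medians per mouse were compared by exact permutation tests, in families of 34, 9 or 17 types over 3 contrasts. Scripts were tested on simulated counts. Gene positions are from GENCODE for mm10. UMIs are depth: 10475 to 226527 a mouse. Intervals cover counting error only.

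Members and 27 gene lists were chosen with earlier results of these data known. The rule for named genes took the 4 markers, all changed genes of the all-age comparison, and the 5 largest rises and falls of the other comparisons whose mean log2 CPM reached 5. Of each list it took the 2 highest members, the member with the smallest p for hyperoxia and any member changed there. Not every gene under the rule is described above. Members with the smallest p of their list that are left out include Il2rg, Tgfb1 and Icam1. Gapdh, Gzmc, Il18rap, Jak1, Lgals1, Mbnl1, mt-Co1, mt-Nd3, Pabpc1, Selenoh, Ssh2, Tcf7, Tubb4b and the single markers of other lymphocytes fall outside this rule and were chosen after their values were seen. Alternatives covered scaling, filters, DESeq2, thinning, cells per mouse, CD3 UMIs, pools and single mice; restricting to the most frequent barcode, leaving out pool P14_1, omitting TMM, the lymphoid block and the pool term for P7 against P3 were added after seeing the data. Mice of a pool were paired by the shared library: deviations of pool-mates from their group means correlated at 0.157 (P3), 0.377 (P7) and -0.00875 (P14). 1 item is not reported here.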

Additional observations from a re-analysis of the deposited data

Results flagged for a closer look

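Of 162 sets of 4 to 6 mice tested for a mouse that stands apart from its group, 18 held one, where chance gives about 1 in 20. In normoxic P7 mouse 2, NK cells were 18.0% of 50 lymphoid cells, against 5.03% to 7.39% in the other 5 mice, and its NK cells also had the highest Xcl1 (4866 CPM), Ifitm1 (1216 CPM) and Ifitm3 (286 CPM) of its group. Among normoxic P14 mice, mouse 4 was high in Ccr2 (1368 CPM) and Hbb-bs (32452 CPM), mouse 3 in Prf1 (620.3 CPM) and in Ifitm3 (23.9 CPM, 1 UMI, with the others at 0), mouse 1 in Il18rap (714 CPM) and mouse 2 in Ifitm1 (645 CPM). The rises of Ccr2, Prf1 and Il18rap from P3 to P14 were called without each of these mice in turn.

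Hbb-bs was carried by single mice in other groups too, at 19221 CPM in normoxic P7 mouse 6, 6436 CPM in hyperoxic P7 mouse 4 and 23.4 CPM in hyperoxic P3 mouse 4. Among normoxic P3 mice, mouse 1 had the highest Ctla2a (573 CPM) and mouse 6 the highest Gzmb (969.9 CPM). Among hyperoxic mice, P3 mouse 1 was high in Hmgb2 (3595 CPM), P7 mouse 5, with 5 NK cells, in Ccl5 (14489 CPM) and P14 mouse 2 in Ifitm1 (167 CPM).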

How the results depend on the processing

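The fall of Txnip was called in every fit that left out 1 mouse, by DESeq2 and with the replicate block, a term for each pool (-1.61), whereas counts of changed genes with age moved with most choices, and the cause was not tested. Over all ages, the number of genes changed by hyperoxia was 0 with cells thinned to equal depth, with mice of at least 1 NK cell, without age in the model or without cells with a CD3 UMI, 3 with at least 10 NK cells a mouse and 21 with no filter on low counts. Without that filter the counts were 5, 8 and 52 at P3, P7 and P14, 3, 27 and 25 for the differences of effects (P7 against P3, P14 against P7, P14 against P3), 13, 177 and 106 for ages in normoxia and 17, 20 and 43 in hyperoxia (P7 against P3, P14 against P7, P14 against P3), and 21 for NK against CD8+ T cells. At P14, DESeq2 called 1 gene, thinning gave 3 and cells whose assigned barcode was the most frequent gave 2, and the difference of effects between P14 and P7 gave 1 with at least 1 NK cell and 2 with those barcodes.

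From P7 to P14 in normoxia the count of 42 became 5 after thinning, 0 with at least 10 NK cells, 86 with the most frequent barcode, 0 without CD3 cells and 4 without pool P14_1. From P3 to P14 in normoxia, 40 became 11, 6, 1 and 7 after thinning, with at least 10 NK cells, without CD3 cells and without pool P14_1. From P7 to P14 in hyperoxia, 0 became 5 (DESeq2), 2 (thinned), 5 (10 cells), 8 (barcode) and 9 (without P14_1). From P3 to P14 in hyperoxia, 9 became 17 (DESeq2), 2 (thinned), 26 (1 cell), 14 (10 cells), 18 (barcode), 2 (without CD3) and 25 (without P14_1). Most changed genes dropped at the filter on low counts after thinning and were not tested there. Leaving out 1 mouse of the groups compared gave 0 to 132 genes from P7 to P14 and 16 to 46 from P3 to P14 in normoxia, 0 to 6 and 0 to 22 in hyperoxia, 0 to 2 for hyperoxia at P14 and 0 to 1 for its difference from P7. From P7 to P14 in normoxia, Selenoh (0.22), Mbnl1 (-0.022) and Lmnb1 (4.03) changed sign without CD3 cells, and Ets1 (-0.15), Lmnb1 (0.30) and mt-Co1 (-0.0026) with at least 10 NK cells. NK against CD8+ T cells gave 2 genes with at least 10 cells of both.

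For the share of NK cells, hyperoxia at P14 passed by edgeR on numbers of cells (1.54 on the log2 scale) and among lymphoid cells (8.14 points), and P14 against P7 in normoxia among immune cells (-1.10). Among lymphoid cells the direction was the opposite for P7 against P3 in normoxia (-3.63) and hyperoxia (-6.87), for P14 against P7 (0.594) and P3 (-6.27) in hyperoxia, and for the P7 effect against the P3 effect (-3.24). It also turned without CD3 cells for P14 against P3 in normoxia (0.0142) and P14 against P7 in hyperoxia (0.314), for the latter without the mouse with the fewest cells (0.156) and by edgeR (0.00345), and without pool P14_1 for P14 against P3 in hyperoxia (-0.0812) and, among lymphoid cells, P14 against P7 in hyperoxia (-3.46). The lymphoid difference at P14 no longer passed without pool P14_1 (4.13) or with the replicate block, labels exchanged within pools (8.14, adjusted p = 0.0675). In both, the permutation p before adjustment (0.1 and 0.005) was the smallest possible, and without the pool the test could not pass. The block was run for the shares of all cells and of lymphoid cells, and it changed no other call on these shares. With at least 10 NK cells the P14 differences of UMIs (1763.8) and genes (438.5) per cell no longer passed, and the mitochondrial difference at P3 was -0.085. At least 10 NK cells a mouse left 2, 1 and 2 normoxic mice at P3, P7 and P14. For ages, a term for each pool (replicate block, added after seeing the data) gave 0 genes for P7 against P3 at both oxygen levels, and none could be fitted for P14, whose pools held no younger mice.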

Other observations

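Gene lists not described above gave few signs of a change with hyperoxia over all ages, and none of their genes was called. MHC class I presentation had 9 tested genes, 8 above 0 (median log2 fold change 0.13), with H2-Q7 at 0.33 ± 0.16. Immature NK genes had 7 tested, 6 above 0 (median 0.29); the exception was Cd7, an early lymphoid surface protein, at -0.52 ± 0.25, and the mature NK genes had 3 tested (median -0.056). The 8 transcription factors had a median of -0.037, with Klf2, a regulator of lymphocyte egress, at -0.65 ± 0.28. Immediate early genes had 13 tested (median 0.011), NF-kB targets 6 (0.14), glycolysis and hypoxia genes 8 (0.12), cell cycle genes 10 (0.24), homing receptors 8 (-0.032) and apoptosis regulators 4 (-0.073). Of 24 interferon-stimulated genes 2 passed the filter (median -0.27), and of the other markers 4 T cell, 3 ILC, 1 B cell, no myeloid and 3 epithelial, stromal or endothelial genes did, with medians of -0.12, 0.23, 0.42 and -0.078 for those with a value. The 2 tested p53 targets had a median of 0.35.

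Of 11 tested mitochondrial genes, 10 were higher at P14 than at P7 in normoxia (median 0.30), and mt-Nd3 (1.0 ± 0.24) and mt-Co1 (0.54 ± 0.16) were called by edgeR (adjusted p = 0.027 and 0.048), while mt-Co1 was at -0.0026 with at least 10 NK cells a mouse. Of all genes, 1.38% were called higher in this comparison.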
